A study of Mus musculus with 14 samples.

Results

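The immediate early genes of the EGR, NR4A and IER families, together with Srf, were read in mouse kidneys taken 5 h after surgery, either sham or with ischemia-reperfusion (IR) injury. The genes are Egr1, Egr2, Egr3, Nr4a1, Nr4a2, Nr4a3, Ier2, Ier3, Ier5 and Srf. They were chosen by symbol from both deposited tables of gene expression, and all 10 were found among 23286 genes. All 10 passed the filter on low values in every comparison, although Egr3 never exceeded 10 reads in a library.

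The 12 bulk RNA-seq libraries are whole kidneys of 9-week-old mice in 4 groups of 3: Control with sham surgery, Control with IR, VE-PTPiKO with sham surgery and VE-PTPiKO with IR. The labels call the mutant VE-PTPiKO: it targets VE-PTP, an endothelial phosphatase that acts on the receptor Tie2 and is encoded by Ptprb. The driver of the deletion, the strain and sex of these mice, the ischemia time and any treatment shared by the groups are not given in the sources used here. The series also lists 2 single-cell samples of kidneys from 12-month-old C57BL/6 mice, taken 24 h after IR and treated with vehicle or Hepta-ANG1, which were not analysed here.

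Immediate early genes are transcribed within minutes of a stimulus from transcription factors already present in the cell, without new protein synthesis. Srf encodes serum response factor, which binds the CArG box, a short A/T-rich element, together with cofactors of the ternary complex family (phosphorylated by MAP kinases) or of the myocardin family (released by actin assembly). EGR proteins are zinc finger transcription factors that bind GC-rich sites, NR4A proteins are orphan nuclear receptors that bind DNA alone or with retinoid X receptors, and the IER genes are named for their rapid induction, with Ier2 and Ier5 encoding related proteins and Ier3 an unrelated one. CREB, which binds the cAMP response element, is another route to several of these genes.

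The promoter bases of 4 genes are shown because Srf regulates Egr2 and its own gene through CArG boxes, while the NR4A promoters are known for cAMP response elements. RefSeq promoters (GRCm38.p6, the mm10 assembly) were read for 7 of the 10 genes. Egr1 was left out of the search, and no usable window was found for Egr3 or Ier2. Each line gives the 250 bases before the transcription start in the gene's own orientation, 5′ to 3′. The windows are chr10:67537619-67537868 on the plus strand for Egr2, whose start is the one of 5 listed that meets the gene start in the deposited table, chr17:46556163-46556412 on the minus strand for Srf, chr15:101266596-101266845 on the plus strand for Nr4a1 and chr4:48045055-48045304 on the plus strand for Nr4a3. Capitals mark a CArG box (CC and GG around 6 bases that are A or T) or the core TGACG of the cAMP response element, read on either strand, so that CGTCA is the same core on the other strand.
Egr2: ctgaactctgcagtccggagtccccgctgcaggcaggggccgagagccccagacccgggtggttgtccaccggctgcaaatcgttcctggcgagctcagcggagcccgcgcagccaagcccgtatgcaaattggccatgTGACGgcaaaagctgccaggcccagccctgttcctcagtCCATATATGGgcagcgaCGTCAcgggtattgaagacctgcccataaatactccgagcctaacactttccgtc
Srf: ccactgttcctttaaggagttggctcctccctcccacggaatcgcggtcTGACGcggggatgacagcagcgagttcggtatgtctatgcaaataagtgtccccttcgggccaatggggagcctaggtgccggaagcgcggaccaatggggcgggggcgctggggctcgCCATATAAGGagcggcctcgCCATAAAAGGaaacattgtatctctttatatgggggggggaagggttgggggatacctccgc
Nr4a1: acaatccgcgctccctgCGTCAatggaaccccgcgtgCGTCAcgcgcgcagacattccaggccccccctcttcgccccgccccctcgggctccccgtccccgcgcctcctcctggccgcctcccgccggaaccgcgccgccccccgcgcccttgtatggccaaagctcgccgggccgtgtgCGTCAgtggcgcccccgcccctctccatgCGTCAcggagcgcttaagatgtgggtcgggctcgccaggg
Nr4a3: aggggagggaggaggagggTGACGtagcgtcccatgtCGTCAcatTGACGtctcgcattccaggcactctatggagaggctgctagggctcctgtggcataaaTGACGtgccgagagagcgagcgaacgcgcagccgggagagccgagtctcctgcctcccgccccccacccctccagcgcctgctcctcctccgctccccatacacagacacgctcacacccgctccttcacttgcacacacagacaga

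The Egr2 window held 1 CArG box, CCATATATGG, from 72 to 63 bases before the start, and 2 TGACG cores. The Srf window held 2 CArG boxes, CCATATAAGG from 82 to 73 and CCATAAAAGG from 62 to 53 bases before the start, and 1 TGACG core. Among 27025 genes, each read in the first window listed for it, 1.399% had a CArG box and 17.861% had TGACG on either strand. Over all 32851 windows the shares were 1.467% and 17.765%. The Egr2 window was instead chosen to meet the gene start in the deposited table. The Nr4a1 and Nr4a3 windows each held 4 TGACG cores and no CArG box, as did the Nr4a2 window, whose RefSeq start lies 8965 bases from the gene start in the deposited table, and the windows of Ier3 and Ier5 held neither. The full palindrome TGACGTCA, which contains the core on both strands and was found for 1.624% of genes, was in none of the 7. The same was true of the EGR motif GCGTGGGCG (0.540% of genes) and of the NR4A motif AAAGGTCA (1.310%). These are letter matches in a short window and were not measured as binding.

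The libraries held 15427887 to 21296392 reads on genes. Ptprb, the targeted gene, had 168 to 246 CPM (reads scaled to the total on genes) in Control sham, 112 to 159 in Control IR, 117 to 162 in VE-PTPiKO sham and 75 to 126 in VE-PTPiKO IR. In VE-PTPiKO its value was lower but not called, both in sham (log2 difference −0.43 ± 0.20 SE, limma adjusted p = 1) and after IR (−0.45 ± 0.20, limma adjusted p = 0.9999). Reads over a whole gene may not show a deletion of part of it, and the extent of the deletion was not tested. IR lowered Ptprb in Control (log2 −0.62 ± 0.15 SE, limma adjusted p = 0.0246), and in VE-PTPiKO the value was −0.65 ± 0.21 (0.168). Malat1, a nuclear RNA, took 1.96% of reads in VE-PTPiKO IR replicate 3, 1.15% in VE-PTPiKO sham replicate 2 and 1.02% in Control sham replicate 2, against 0.327% to 0.564% in the other 9 libraries. Results were therefore also computed without these 3. Markers of proximal tubule, loop of Henle, distal tubule and collecting duct, podocyte and endothelium were detected in every group, with 0 of 18 at 0 in all libraries. Of these 18, the endothelial cadherin gene Cdh5 was called up in Control IR (1.49-fold, limma adjusted p = 0.00562), where the other 17 were not called, and 0 of 18 were called in VE-PTPiKO (Cdh5 1.21-fold, 0.484). The 9 leukocyte markers summed to 81.8 to 101 CPM in Control sham libraries and 102 to 113 in those with IR, and to 88.1 to 97.4 and 91.1 to 117 in VE-PTPiKO, with 0 of 9 called in either genotype. Csf1r made up most of these sums, with means of 69.4 CPM in Control sham, 73.2 in Control IR, 68.2 in VE-PTPiKO sham and 65.9 in VE-PTPiKO IR. The median log2 fold change of the 9 was 0.47 in Control and 0.39 in VE-PTPiKO. Both red blood cell markers measured, Hba-a1 (which has a near-identical copy, so its reads are uncertain) and Alas2, rose in Control IR, where they summed to 66.2 to 133 CPM against 17.8 to 35.2 in sham. In VE-PTPiKO they summed to 19.0 to 31.5 in sham and 35.3 to 109 after IR, and neither was called. The part of blood, leukocyte or endothelial RNA in the results below was not tested, and in whole kidney a change in the number of cells of a type and a change in RNA per cell cannot be told apart. The labels do not say that the 3 libraries of a group are separate animals, so the p-values cover the spread among these libraries alone, which may be technical.

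In Control kidneys, IR raised 7 of the 10 genes and lowered 0, by limma with Benjamini-Hochberg adjustment over all genes. Over all 16257 genes tested, 7.48% were called up, 4.02% down and 11.5% in either direction at adjusted p under 0.05. The median log2 fold change of the 10 genes was 1.51, against −0.01 over all genes tested. Egr2 (14.3-fold) and Egr1 (11.1-fold) rose most, followed by Ier2, Ier5, Nr4a3, Ier3 and Srf at 2.94-fold to 1.53-fold. Egr3, Nr4a1 and Nr4a2 were not called. Fold changes are on the scale of log2(value + 1), which understates the change of a gene with few reads.

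Egr1 (ENSMUSG00000038418, mm10 chromosome 18, 34861207 to 34864956, plus strand) encodes the zinc finger factor induced by growth factors, stretch and hypoxia. Its Control sham libraries held 16.8, 9.15 and 6.70 CPM, and the injured ones 80.9, 168 and 112 CPM. The lowest IR library lay well above the highest sham library, and IR replicate 1 was the lowest of its group. The log2 fold change was 3.47 ± 0.31 SE (95% interval 6.88-fold to 17.9-fold, limma adjusted p = 6.76e-05), the 23rd largest of 16257.

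Egr2 (ENSMUSG00000037868, chromosome 10, 67537869 to 67542188, plus strand), known as Krox20 for its part in hindbrain and Schwann cell development, was near the detection limit without injury. Control sham held 0.370, 0.394 and 0.751 CPM, from 6, 8 and 13 reads, and Control IR held 6.32, 7.97 and 9.31 CPM. The groups were far apart, with 108 to 169 reads per library after IR. The log2 fold change of 3.84 ± 0.32 SE (95% interval 8.83-fold to 23.2-fold, limma adjusted p = 4.06e-05) ranked 13th of 16257.

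Egr3 (ENSMUSG00000033730, chromosome 14, 70077445 to 70082613, plus strand), an EGR factor studied in muscle spindles and lymphocytes, was barely expressed. It had 1, 6 and 0 reads in Control sham and 5, 9 and 8 in Control IR, and 0 reads in a library of that depth allow up to 0.173 CPM. In CPM the groups overlapped by a narrow margin, since sham replicate 2 (0.2952) exceeded IR replicate 1 (0.2925). On the deposited scale used for the fit, the order of these libraries was reversed. The log2 fold change was 1.74 ± 0.67 SE (limma adjusted p = 0.132), and it became 2.44 with adjusted p = 0.0277 once Control sham replicate 2 was left out, and 1.12 with 0.323 without sham replicate 3.

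Of the NR4A family only Nr4a3 was called, and its call held in all 16 alternative settings. In Control these are not 16 separate fits, here and below. Leaving out the 3 libraries highest in Malat1 is there the same fit as leaving out sham replicate 2. Nr4a3 (ENSMUSG00000028341, chromosome 4, 48045305 to 48086446, plus strand), also called NOR1, read 2.47, 3.94 and 5.37 CPM without injury and 9.89, 11.9 and 10.4 CPM with it. The groups did not overlap, and IR libraries lay closer together than sham libraries. Its log2 fold change was 1.47 ± 0.26 SE, or 2.78-fold (limma adjusted p = 0.00433).

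Nr4a1 (ENSMUSG00000023034, chromosome 15, 101266846 to 101274794, plus strand), also called NUR77, read 47.2, 38.8 and 22.6 CPM without injury and 36.2, 71.7 and 79.7 CPM with it. IR replicate 1 lay inside the sham range and the other IR libraries above it. The log2 fold change of 0.74 ± 0.29 SE was not called (limma adjusted p = 0.143), and it ranged from 0.45 (adjusted p = 0.406) without Control sham replicate 3 to 1.07 (0.025) without Control IR replicate 1. Nr4a2 (ENSMUSG00000026826, chromosome 2, 57107226 to 57115038, minus strand), or NURR1, a factor of dopamine neurons, had 4.20, 1.53 and 4.68 CPM in sham and 1.87, 2.36 and 3.36 after IR. The IR values lay within the sham range, with a log2 fold change of −0.36 ± 0.40 SE (limma adjusted p = 0.658). It was −0.88 (adjusted p = 0.0691) without sham replicate 2, −0.06 without sham replicate 3, −0.15 without sham replicate 1, −0.20 without IR replicate 1 and −0.56 without IR replicate 3.

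All 3 IER genes rose, each in all 16 alternative settings, with no overlap between sham and IR. Groups of CPM values with IR higher and no overlap made up 17.4% of all genes tested and groups with IR lower 11.9%. Of the 10 genes here, 7 had the first and 0 the second. Ier2 (ENSMUSG00000053560, chromosome 8, 84661331 to 84662852, minus strand), a nuclear protein of growth factor responses, went from 18.4, 15.6 and 18.2 CPM after sham surgery to 36.0, 75.3 and 52.6 CPM. The sham libraries were tight and the IR libraries spread over 2.09-fold, and the log2 fold change was 1.56 ± 0.22 SE (limma adjusted p = 0.000941).

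Ier3 (ENSMUSG00000003541, chromosome 17, 35821713 to 35822911, plus strand), also called IEX-1, modulates cell death and ERK signaling. Sham libraries read 46.3, 38.7 and 30.6 CPM, and injured libraries 65.6, 106 and 90.1 CPM. Sham and IR were separated by less than for Ier2, with a log2 fold change of 1.14 ± 0.18 SE (limma adjusted p = 0.00219). Ier5 (ENSMUSG00000056708, chromosome 1, 155096367 to 155099636, minus strand), which promotes heat shock factor activity, had 11.5, 13.4 and 16.6 CPM in sham and 38.4, 47.5 and 37.2 CPM after IR. It had the smallest pooled SD within groups of the 3 (0.18 on the log2 scale), with a log2 fold change of 1.54 ± 0.17 SE (limma adjusted p = 0.000184).

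Srf (ENSMUSG00000015605, chromosome 17, 46546839 to 46556162, minus strand) rose by the smallest fold among the called genes. Sham libraries read 28.01, 31.7 and 27.8 CPM, and injured libraries 48.1, 47.4 and 41.6 CPM. Values within a group lay within 1.16-fold of each other, and the groups were clearly apart. On the log2 scale the change was 0.62 ± 0.12 SE, or 1.53-fold (limma adjusted p = 0.00774), and without Control IR replicate 2 it was 0.59 with adjusted p = 0.0589.

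**Figure D1:**
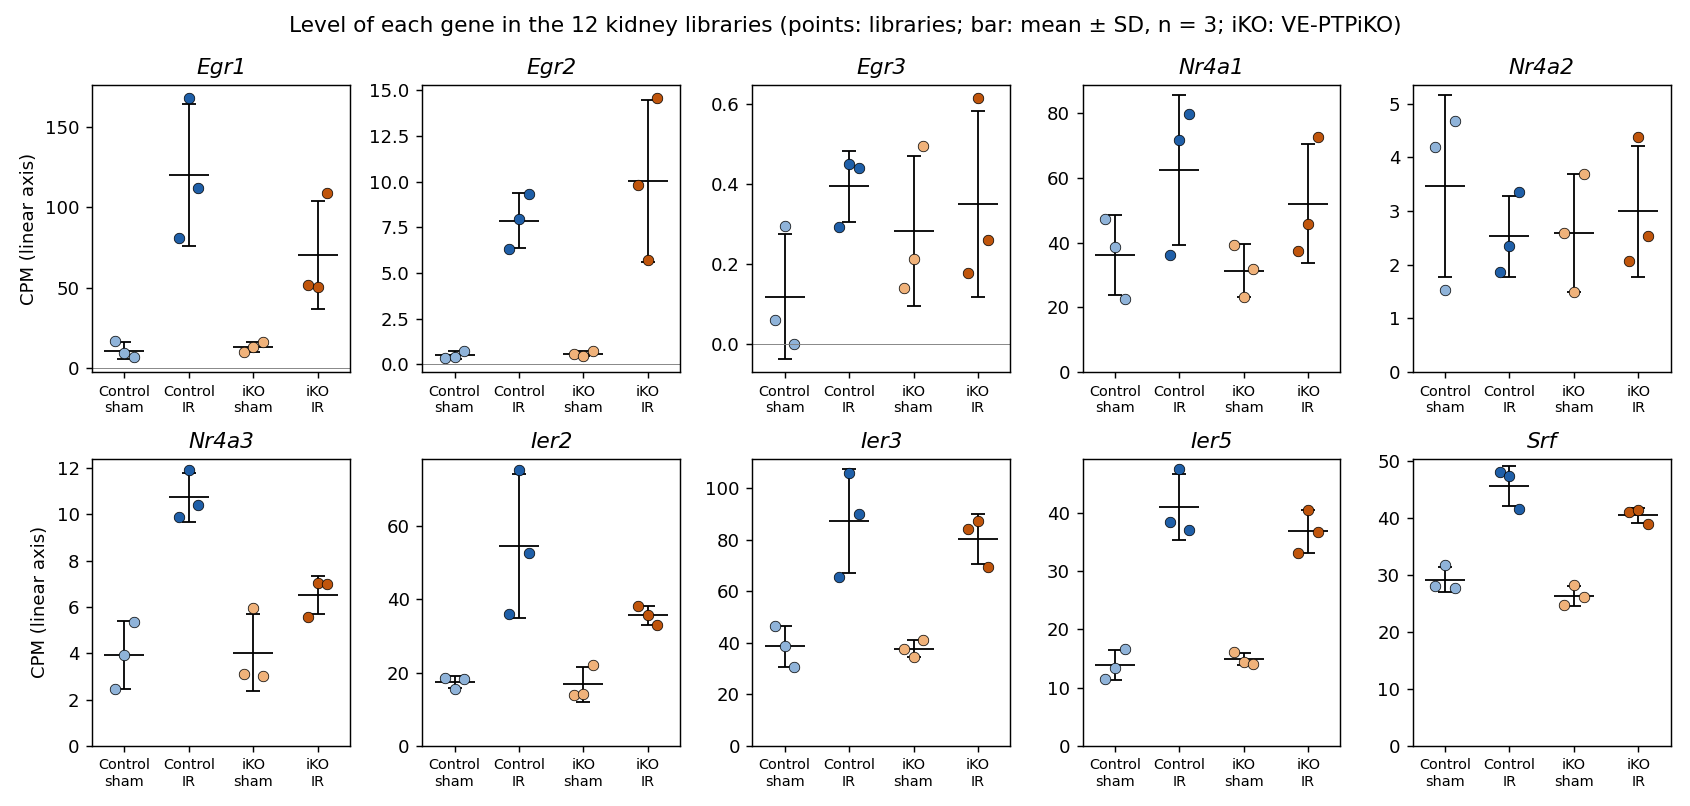
CPM of each gene (linear vertical axis, a separate range per gene) in the 4 groups on the horizontal axis, with 1 point per library and bars for the mean and SD of 3 libraries. Egr1 and Egr2 show the widest gap between sham and IR in both genotypes, Egr3 stays below 1 CPM, and Nr4a2 shows overlapping groups throughout.

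In VE-PTPiKO kidneys, 5 of the 10 genes rose after IR and 0 fell, where 1.92% of 16401 genes tested were called up, 0.793% down and 2.71% in either direction. These were Egr2 (14.3-fold), Egr1 (4.90-fold), Ier5 (2.38-fold), Ier2 (2.10-fold) and Ier3 (2.05-fold). The median log2 fold change of the 10 was 0.87, against −0.01 over all genes tested. Nr4a3 and Srf, both called in Control, were not called here.

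Egr1 stood at 10, 13.2 and 16.2 CPM in VE-PTPiKO sham and at 51.8, 50.5 and 109 CPM after IR. The groups did not overlap, and IR replicate 3, the library with the largest share of Malat1 reads, stood well above both other IR libraries. The log2 fold change was 2.29 ± 0.30 SE (95% interval 3.06-fold to 7.86-fold, limma adjusted p = 0.00568), and 1.95 without the 3 libraries highest in Malat1 (limma adjusted p = 0.00511). Egr2 had 0.564, 0.482 and 0.715 CPM in sham and 9.84, 5.72 and 14.6 CPM after IR. The highest value was again in IR replicate 3, and the log2 fold change of 3.84 ± 0.36 SE (limma adjusted p = 0.00106) ranked 5th of 16401. Egr3 had 3, 4 and 9 reads in sham and 3, 10 and 4 after IR, with overlapping groups and a log2 fold change of 0.21 ± 0.60 SE (limma adjusted p = 0.917).

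Nr4a3 had 3.10, 5.94 and 3.02 CPM in VE-PTPiKO sham and 5.57, 7.02 and 7 CPM after IR. Sham replicate 2 exceeded the lowest IR library, and the log2 fold change of 0.70 ± 0.28 SE was not called (limma adjusted p = 0.271). Nr4a1 had 39.2, 23.1 and 32.0 CPM in sham and 37.6, 45.7 and 72.9 CPM after IR, where the groups overlapped and replicate 3 was again the highest. Its log2 fold change was 0.65 ± 0.26 SE (limma adjusted p = 0.276), and 0.18 without the 3 libraries highest in Malat1, 0.40 without IR replicate 3 alone and 0.43 without sham replicate 2 alone. Nr4a2 had 2.58, 1.499 and 3.68 CPM in sham and 2.08, 4.37 and 2.53 CPM after IR, fully overlapping (log2 0.17 ± 0.41 SE, limma adjusted p = 0.9).

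Ier2 went from 13.9, 14.2 and 22.2 CPM in VE-PTPiKO sham to 38.3, 35.7 and 33.1 CPM after IR, without overlap (log2 1.07 ± 0.22 SE, limma adjusted p = 0.0379). Ier3 went from 37.4, 34.5 and 41.2 CPM to 84.1, 87.4 and 69.2 CPM, also without overlap (log2 1.03 ± 0.16 SE, limma adjusted p = 0.012). These were the calls that depended on single libraries. Ier2 lost its call without sham replicate 1, sham replicate 2, IR replicate 1 or IR replicate 2 (limma adjusted p = 0.0992, 0.163, 0.155 and 0.144). Ier3 lost its call when sham replicate 2 or either of IR replicates 1 and 2 was left out (limma adjusted p = 0.0688, 0.0599 and 0.072). Ier5 kept its call in all 16 settings: it had 16.1, 14.4 and 14.1 CPM in sham and 33.1, 40.6 and 36.8 CPM after IR (log2 1.25 ± 0.15 SE, limma adjusted p = 0.00357).

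Srf had 24.7, 28.3 and 26.2 CPM in VE-PTPiKO sham and 41.2, 41.4 and 39.0 CPM after IR. The groups were as clearly apart as in Control, with a log2 fold change of 0.57 ± 0.14 SE, but the value was just short of the threshold (limma adjusted p = 0.0692). It was called without IR replicate 3 (adjusted p = 0.0187), in the model of all 12 libraries (0.0107), without the 3 libraries highest in Malat1 (0.0405) and with DESeq2 (0.00686). Groups of CPM values with IR higher and no overlap made up 12.7% of all genes tested in VE-PTPiKO and groups with IR lower 7.48%. Of the 10 genes here, 6 had the first and 0 the second.

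Whether the response to IR differed between genotypes was tested directly over all 12 libraries, since a call in 1 genotype and not in the other does not show a difference. By limma, 0 of the 10 genes and 0% of 16339 genes passed for the difference of the responses. At an unadjusted p under 0.05 there was 1 of the 10 genes, against 432 of all genes (2.644%). That gene was Egr1, whose response was smaller in VE-PTPiKO by a log2 difference of −1.18 (95% interval −2.29 to −0.07, limma adjusted p = 0.9995), and it lay below 0 in all 21 alternative settings. The interval of Egr2 ran from −1.06 to 1.07 around a difference of 0.00, which does not show that the responses were equal. With edgeR and DESeq2, 0 genes passed as well. Egr3 gave −1.53 (−3.55 to 0.49) and Nr4a3 −0.77 (−1.66 to 0.12). The narrowest interval was that of Srf, at −0.05 (−0.40 to 0.31). The others were −0.49 for Ier2, −0.29 for Ier5, −0.11 for Ier3, −0.09 for Nr4a1 and 0.54 for Nr4a2. Thus 8 of 10 were below 0, where 52.22% of all genes were.

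Levels after IR were also compared between genotypes, and 0 of the 10 genes passed (limma adjusted p = 0.9999 for each; 0% of 16339 genes were called). Egr1 was 1.79-fold lower in VE-PTPiKO IR (log2 −0.84 ± 0.36 SE, 95% interval −1.62 to −0.05), Nr4a3 was 1.68-fold lower (−0.75 ± 0.29, −1.38 to −0.12) and Ier2 was 1.497-fold lower (−0.58 ± 0.24, −1.11 to −0.06). These are the 3 of 10 genes with an unadjusted p under 0.05, against 709 of all genes (4.339%). Every VE-PTPiKO IR library lay below every Control IR library for Nr4a3 and Srf, 2 of 10 genes, where 3.68% of all genes tested had such groups and 4.83% had them the other way. For Srf the groups nearly met, at 41.41 CPM in VE-PTPiKO IR replicate 2 and 41.64 CPM in Control IR replicate 3. The VE-PTPiKO IR and Control IR values of Egr1 overlapped only through VE-PTPiKO IR replicate 3 and Control IR replicate 1. Without the 3 libraries highest in Malat1 the log2 difference of Egr1 was −1.18 (limma adjusted p = 0.264). In sham kidneys 0 of the 10 genes passed (limma adjusted p = 1 for each; 0% of all genes were called), 0 had an unadjusted p under 0.05 against 267 of all genes (1.634%), and differences ran from −0.36 for Nr4a2 to 1.23 for Egr3. Groups without overlap in sham made up 2.66% of all genes with VE-PTPiKO higher and 2% with it lower, and 0 of the 10 genes had them.

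**Figure D2:**
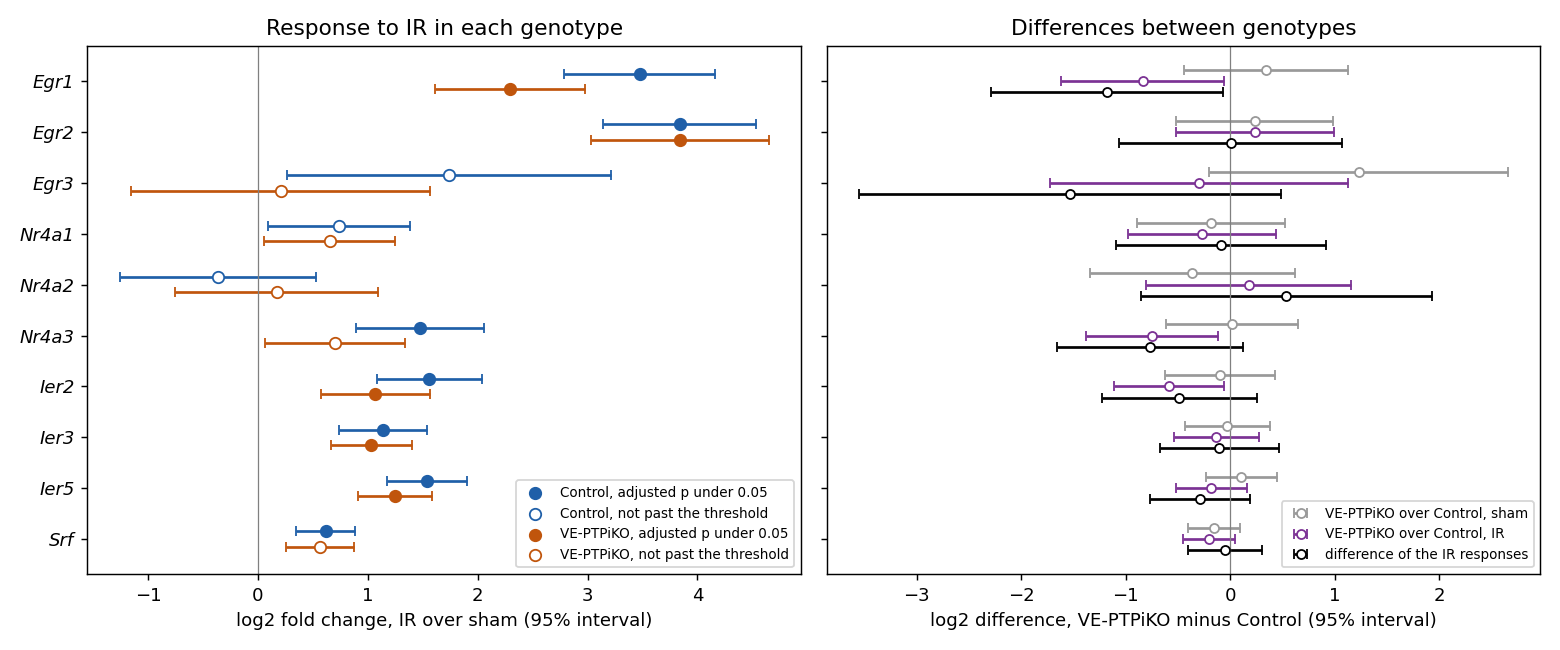
Left, log2 fold change of IR over sham for each gene in Control and VE-PTPiKO kidneys, filled where limma adjusted p is under 0.05. Right, log2 differences between genotypes in sham, after IR and between the IR responses, all with 95% intervals. Egr2 has the same fold change in both genotypes (14.3-fold), and the intervals of Egr1, Nr4a3 and Ier2 after IR lie below 0 before adjustment.

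The order of group means was shared by most genes. Control IR was highest and VE-PTPiKO IR second for Egr1, Egr3, Nr4a1, Nr4a3, Ier2, Ier3, Ier5 and Srf, while Egr2 was highest in VE-PTPiKO IR (10.1 ± 4.43 CPM against 7.87 ± 1.497 in Control IR, SD, n = 3). Nr4a2 was highest in Control sham at 3.47 ± 1.70 CPM, and its 4 groups overlapped. For Egr1 the means were 120 ± 44.3 CPM in Control IR, 70.4 ± 33.4 in VE-PTPiKO IR, 13.2 ± 3.11 in VE-PTPiKO sham and 10.9 ± 5.26 in Control sham. The sham groups overlapped for all 10 genes, and so did the IR groups for all but Nr4a3 and Srf.

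Levels of different genes were compared per kilobase of exon. On this scale (CPM per kb) Ier3 was the highest of the 10 in every group, at 34.1 ± 6.95 in Control sham and 77.1 ± 17.97 in Control IR (SD, n = 3). Control IR levels per kb were 35.9 for Ier2, 26.9 for Egr1, 17.8 for Nr4a1, 15.8 for Srf, 12.5 for Ier5, 2.32 for Egr2, 1.79 for Nr4a3, 0.623 for Nr4a2 and 0.0896 for Egr3. Egr1 thus stood below Srf, Ier5 and Nr4a1 in Control sham, at 2.43 against 10.1, 4.23 and 10.3, and above all 3 in Control IR. The summed EGR level lay between 1.72 and 3.87 CPM per kb in Control sham libraries and between 20.0 and 40.0 in Control IR libraries. In VE-PTPiKO it lay between 2.43 and 3.94 in sham and between 13.1 and 28.6 after IR.

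Egr1 made up most of the EGR sum, 89.8% to 93.9% in Control IR libraries and 79.7% to 86.1% in VE-PTPiKO IR libraries. Per 100 of Egr1 on the per-kb scale, Egr2 stood at 10.3, 6.25 and 11.0 in Control IR and at 25.1, 14.9 and 17.7 in VE-PTPiKO IR. These groups did not overlap. The means were 9.17 ± 2.55 and 19.2 ± 5.25 (SD, n = 3), a ratio of 2.1. An exact permutation test on the log2 values gave p = 0.1, the lowest that 3 against 3 libraries can give. After Benjamini-Hochberg adjustment over 4 comparisons it was 0.2. The ratio is given as a description, because it was chosen after the values were seen. The sham values were 2.91, 5.67 and 14.8 in Control and 7.43, 4.81 and 5.82 in VE-PTPiKO, which overlapped (ratio of means 0.772). Within VE-PTPiKO, IR and sham did not overlap either, with a larger ratio of means of 3.2 (exact permutation p = 0.1). Within Control, IR over sham gave 1.18 (exact permutation p = 0.6). Nr4a1 made up 75.9% to 92.1% of the NR4A sum and Ier3 59.4% to 72.4% of the IER sum over all libraries.

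Libraries of 1 group differed most in Egr1 and Nr4a1 on log2(CPM + 1), a scale that compresses low levels. Relative to the group mean in CPM, the SD of Egr3 ran from 22.5% in Control IR to 131% in Control sham. For Nr4a1 it ran from 25.7% in VE-PTPiKO sham to 37.0% in Control IR. The pooled SD within groups on log2(CPM + 1) was 0.54 for Egr1, 0.51 for Nr4a1 and 0.47 for Nr4a2, at the 97.7, 97.1 and 95.9 percentiles of 12981 genes with at least 1 CPM, where the median was 0.21. Srf was among the steadiest, with an SD of 0.09 at the 6.46 percentile. Control IR replicate 1 lay below its group mean in 9 of 10 genes (all but Srf) and Control IR replicate 2 above it in 9 of 10 (all but Nr4a2). The sample code in the title of Control IR replicate 1 also lies far from the codes of the other libraries. VE-PTPiKO IR replicate 3 lay above its mean in Egr1 (0.72), Egr2 (0.58) and Nr4a1 (0.53) and below it in Ier3 (−0.20). In Control sham, replicate 1 was high in Egr1 (0.67) and Nr4a1 (0.43), and replicate 3 was low in both (−0.54 and −0.59) and high in Nr4a2 and Nr4a3.

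**Figure D3:**
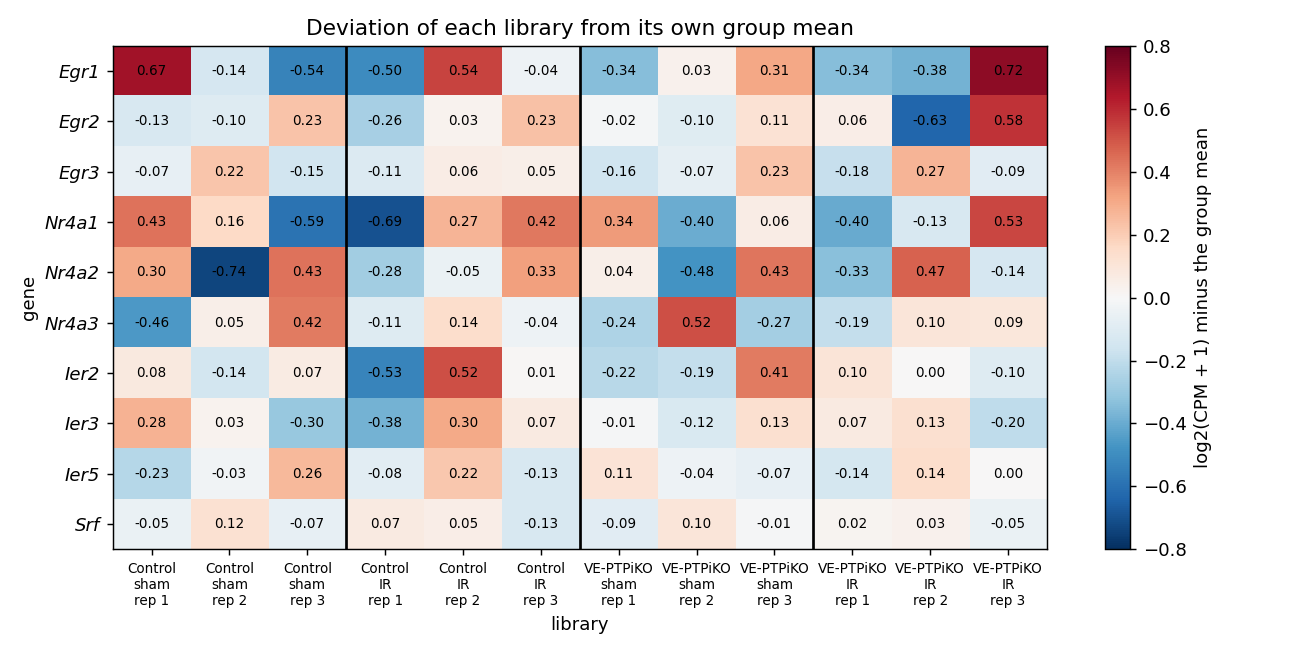
Difference of each library from its own group mean on log2(CPM + 1), with genes in rows, the 12 libraries in columns and vertical lines between groups. The column of Control IR replicate 1 is negative for 9 of 10 genes, and the row of Srf is pale throughout (SD 0.09).

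Other genes of the same pathways were read by lists. Over all genes tested, limma called 7.48% up and 4.02% down in Control, and 1.92% up and 0.793% down in VE-PTPiKO. The counts of the lists were not tested against these shares. Of 12 other immediate early genes, 11 were tested (Egr4 was too low), and in Control kidneys 8 rose and 0 fell by limma. The same 7 rose in all 16 alternative settings (Arc, Btg2, Cyr61, Plk2, Plk3, Maff and Trib1), while Ier5l was at the threshold (1.63-fold, limma adjusted p = 0.04999) and was not called in 10 of 16 alternative settings. DESeq2 also called Errfi1 down. Cyr61, a secreted matrix protein and SRF-MRTF and YAP target, rose 7.34-fold (log2 2.88 ± 0.24 SE, limma adjusted p = 4.54e-05). The antiproliferative gene Btg2 rose 3.36-fold, Trib1, a pseudokinase, 3.15-fold, and Arc, a cytoskeleton-associated immediate early gene of neurons, 3.03-fold. In VE-PTPiKO 6 of 11 rose and 0 fell by limma, among them Cyr61 (4.08-fold), Btg2 (2.42-fold), Arc (2.42-fold) and Trib1 (2.25-fold). The VE-PTPiKO count was 9 without IR replicate 3, 5 without sham replicate 3, and 9 up with 1 down (Errfi1) by DESeq2. The model of all 12 libraries also called Errfi1 down. The list's median log2 fold change was 1.17 in Control and 1.17 in VE-PTPiKO, against −0.01 over all genes in both.

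Of 11 cytoskeletal targets of SRF and its MRTF cofactors, 5 rose in Control by limma, 0 fell and 6 were not called. Over all genes the share called up there was 7.48%. Vcl, which encodes the focal adhesion protein vinculin, rose 2.47-fold, Actg1, cytoplasmic gamma actin (near-identical in coding sequence to Actb, so its reads are uncertain), 2.05-fold, the LIM protein gene Fhl2 1.88-fold and tropomyosin Tpm1 1.57-fold. In VE-PTPiKO 0 of 11 were called by limma within the table, with Vcl 1.66-fold higher (limma adjusted p = 0.1) and Actg1 1.71-fold higher (0.14). There DESeq2 called Vcl and Tpm1 up, the model of all 12 libraries and the fit without the 3 libraries highest in Malat1 called Vcl, and the replicate block called Tpm1. This list moved with single libraries: 2 of 11 were called without Control IR replicate 2, 3 without Control sham replicate 1 or replicate 3, and in VE-PTPiKO 4 without IR replicate 3. The list's median was 0.35 in Control and 0.26 in VE-PTPiKO.

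Of 8 SRF cofactors and EGR corepressors, Mkl1 (the cofactor MRTF-A, 1.62-fold) and Nab1 (an EGR corepressor, 1.34-fold) rose in Control by limma and 0 fell. The model of all 12 libraries called Nab1 and not Mkl1. In VE-PTPiKO 0 of 8 were called by limma, edgeR or DESeq2 with all libraries, Mkl2 was called down without IR replicate 3, and in Control the count fell to 0 when sham replicate 1 or either of IR replicates 2 and 3 was left out, to 1 without sham replicate 3 or IR replicate 1, and was 3 without sham replicate 2. Of 13 genes of the MAP kinase cascade, Map2k3, a kinase that activates p38, rose 3.04-fold in Control (limma adjusted p = 5.7e-05) and 2.09-fold in VE-PTPiKO (limma adjusted p = 0.0064). Rps6ka1, the kinase RSK1, rose 1.65-fold in Control, where its call held only without Control sham replicate 2 among the 6 fits that leave out a library, and was lost with edgeR and with the model of all 12 libraries. With all libraries, the other 11 were not called by limma in either genotype. Mapk14 was called up in Control without sham replicate 2, there the same fit as without the 3 libraries highest in Malat1. Such small counts are not read as a result about these lists, since 7.48% of all genes were called up in Control and 1.92% in VE-PTPiKO.

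Of 6 genes of the CREB family and its coactivators, 0 were called by limma in either genotype. In VE-PTPiKO, Crtc1 was called down by DESeq2, by the model of all 12 libraries and without the 3 libraries highest in Malat1. Without VE-PTPiKO IR replicate 3, Crem was called up and Crtc1 and Crtc2 down. Creb1 itself was at 33.4 ± 5.56 CPM without and 30.9 ± 6.07 with IR in Control kidneys (SD, n = 3), and Crem at 26.7 ± 5.22 and 37.9 ± 6.82 (limma adjusted p = 0.661 and 0.117). Among all genes tested, 4.02% were called down in Control and 0.793% in VE-PTPiKO. Of 3 retinoid X receptors, Rxra fell by 0.50 on the log2 scale in Control (limma adjusted p = 0.0153) and by 0.80 in VE-PTPiKO (limma adjusted p = 0.0453). The Control call ended without IR replicate 1 or 2, and the VE-PTPiKO call held only without IR replicate 3 among the fits that leave out a library, and was lost with edgeR and with no filter on low values. Rxrg was called up in Control with a pseudocount of 5, with the replicate block and with the model of all 12 libraries. These further fits of the lists were added after the data were seen.

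**Figure D4:**
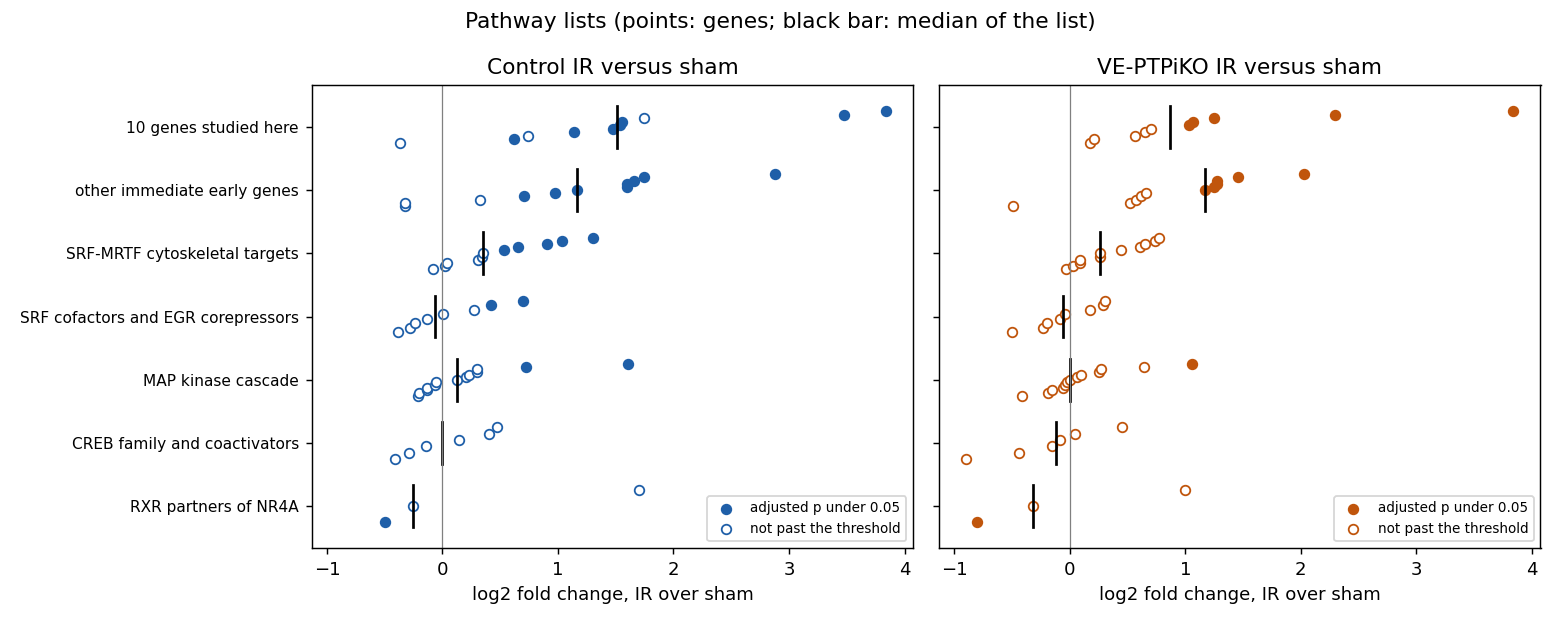
Log2 fold change of IR over sham for the 10 genes and each pathway list in Control (left) and VE-PTPiKO (right), 1 point per gene, filled where limma adjusted p is under 0.05, with a bar at the list's median. The 10 genes (median 1.51 and 0.87) and the other immediate early genes (1.17 in both) lie to the right of the other lists.

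The genes whose pattern over the 12 libraries was most like that of a member were found by the root mean square difference of log2(CPM + 1) after centring each gene, among 10606 genes of at least 5 CPM. For Egr1 these were Fos (0.46), Dusp5 (0.46) and Gprc5a (0.50), where the median gene differed by 1.51 and Egr2 by 0.57. Fos, an AP-1 subunit, rose 8.33-fold in Control and 5.16-fold in VE-PTPiKO (limma adjusted p = 7.67e-05 and 0.00742), and Dusp5, an ERK phosphatase, 7.496-fold and 6.06-fold. For Nr4a1 they were Card10 (0.27), Cgn (0.30) and Lpar3 (0.30) against a median of 0.58, and each was called in Control (1.91-fold to 2.05-fold) and none in VE-PTPiKO. For Ier3 they were Rnd3 (0.17), Ctnnal1 (0.19) and Plk2 (0.19) against a median of 0.60. Genes that rise after IR resemble each other on this measure, so the distances describe these libraries only.

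In the authors' deposited table for Control, the same 7 genes had adjusted p under 0.05, with log2 fold changes of 3.15 for Egr2, 2.27 for Egr1, 1.496 for Ier2, 1.46 for Ier5, 1.27 for Nr4a3, 1.08 for Ier3 and 0.60 for Srf. Their table gives smaller values than the limma fit for the strongest changes, Egr1 and Egr2. The authors' deposited table for VE-PTPiKO had 6 of the 10 below 0.05, the 5 called by limma and Srf (log2 0.54, adjusted p = 0.000341), with 2.84 for Egr2 and 1.92 for Egr1. Egr3 carries the status Low and no adjusted p in the authors' deposited tables.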

How the data were processed

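Total RNA of 12 mouse kidney samples was sequenced in bulk. Per the submitters' processing notes, FastQC, STAR, HTSeq and DESeq2 were used with mm10, and versions are not given in the sources used here. The deposited library columns are a signal: whole gene counts that the authors divided by 1 size factor per library, separately in each genotype's table. Dividing by the step recovered whole reads for 100% of values within 0.02 of a whole number. The authors' deposited log2 fold changes lie nearer 0 than the ratio of their group means. The authors' deposited p-values are per gene with false discovery rate adjustment, per the file headers. The deposited Wald statistic, a score by the authors, was not used.

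IR was compared with sham within a table by limma 3.58.1 (R 4.3.3, with trend) on log2(deposited value + 1), for genes with a mean of at least 1, with Benjamini-Hochberg adjustment over all genes. Contrasts of genotype and of the responses used recovered reads of all 12 libraries, scaled together by median-of-ratios factors over 14828 genes. Of 23493 lines, 182 gene IDs were listed more than once, leaving 23286 genes. CPM were computed from recovered reads, and exon lengths came from GENCODE. Python 3.11.15, pandas 2.3.3 and matplotlib 3.10.9 were used, and the fits were tested on simulated data.

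The 10 genes, pathway lists and markers were chosen with earlier results of these data known. All 10 genes are named, with up to 4 called genes of each list by size of the Control change (the 2 highest in level where none was called) and the 3 genes most like Egr1, Nr4a1 and Ier3. Alternatives were another pseudocount, filter, scaling or tool (edgeR 4.0.16, DESeq2 1.42.0), a replicate block, 1 model of all libraries, and leaving out libraries.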

Additional observations from a re-analysis of the deposited data

How the results depend on the processing

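Of 945 alternative values of the 10 genes, 39 changed sign, 0 of them among called results. Leaving out each library in turn gave 6 to 8 genes called in Control (862 to 2010 of all genes) and 3 to 6 in VE-PTPiKO (126 to 1925). The lowest Control count came without IR replicate 2, and 8 without sham replicate 2 or IR replicate 1. The VE-PTPiKO count was 3 when sham replicate 2 or either of IR replicates 1 and 2 was left out, 4 without sham replicate 1 and 6 without IR replicate 3. Over all genes, VE-PTPiKO calls rose from 445 to 1013 with DESeq2, 1019 with 1 model of all libraries and 853 without the 3 libraries highest in Malat1, and the cause was not tested. Contrasts between genotypes called 0 of the 10 genes in every setting. DESeq2 called 1 of all genes in sham, 1 after IR and 0 for the difference of the responses, and edgeR 0 in each.

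With a replicate block, 7 genes were called in Control (1805 of all genes) and 5 in VE-PTPiKO (604). Deviations of same-numbered libraries correlated at 0.18, −0.05 and −0.13 in Control and 0.55, −0.38 and 0.20 in VE-PTPiKO, so the numbers were not taken to pair samples.

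Without the 3 libraries highest in Malat1, log2 values turned to −0.0795 for Nr4a2 in VE-PTPiKO IR over sham, −0.29 for the Egr2 difference of responses (−0.0225 with a pseudocount of 0.1), 0.11 for Nr4a1, −0.26 for Nr4a3 and 0.0512 for Ier3 between genotypes in sham, and −0.0577 for Egr2 after IR. Leaving out 1 library also turned signs. In VE-PTPiKO, Egr3 ranged from −0.24 to 0.65 and Nr4a2 from −0.19 to 0.50. The difference of responses ranged from −0.30 to 0.34 for Egr2, −0.42 to 0.21 for Nr4a1, −0.27 to 0.0490 for Ier3 and −0.14 to 0.0131 for Srf. In sham the genotype difference ranged from −0.48 to 0.0424 for Nr4a1, −0.28 to 0.29 for Nr4a3, −0.34 to 0.0379 for Ier2, −0.17 to 0.12 for Ier3 and −0.0150 to 0.26 for Ier5. After IR it ranged from −0.0610 to 0.57 for Egr2, −0.75 to 0.0189 for Egr3, −0.15 to 0.39 for Nr4a2 and −0.30 to 0.0216 for Ier3. Egr3, with 0 to 10 reads, is limited by depth: its Control fold ran from 1.76 to 8.06 over the settings.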
